A study of Mus musculus with 6 samples.

Results

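Antisense RNA genes are transcribed from the strand opposite to another gene, and 323 of them carried enough reads to be followed in leukemic blasts with and without *Tet2*. They were selected on their mean level: the genes of biotype antisense in GENCODE M21 whose reads averaged at least 1 CPM (reads of a gene per 1000000 reads of its library) over all 6 libraries, leaving out 4 genes by name. Of the 2853 antisense genes with a transcript in the files, 1921 had at least 1 read and 325 reached the threshold, of which 2 (9330111N05Rik and Kcnq1ot1) were among the names left out. The whole series held 53458 genes, of which 13848 reached 1 CPM.

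Both groups were acute myeloid leukemia (AML) on the C57BL/6 background, in mice that had received bone marrow (BM) from donors with 1 floxed and 1 p30 *Cebpa* allele and the Mx1-Cre transgene, with normal or floxed *Tet2*. Cre was induced with poly(I:C) in the irradiated congenic recipients, so that in both groups the blasts kept the p30 allele of *Cebpa* and lacked the full-length protein. Blasts of 3 Cebpa-/p30 Tet2+/+ mice (mice 19, 23 and 24) were compared with those of 3 Cebpa-/p30 Tet2-/- mice (mice 5, 7 and 8), with 1 library per mouse from frozen BM of moribund animals, sorted as live CD45.2+ cells without CD3, B220 and Ter119. The Mx1 promoter answers to interferon in blood cells and in other tissues, and the sort on CD45.2 left out blood cells of the congenic hosts. The study asked what loss of TET2 changed in these leukemias, and the question here was how the antisense genes and their sense partners differed between the genotypes.

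An antisense RNA can share exons with its sense gene, start next to it and run the other way from a common promoter region, or lie whole within an intron. Many are long noncoding RNAs that are spliced and polyadenylated, and for most the function is not known. TET2 is a dioxygenase that oxidizes methylated cytosine in CG dinucleotides, and its loss in blood cells is known for raising DNA methylation at regulatory elements. The library kit did not mark the strand, so that reads over exons shared by both strands, and reads from unspliced RNA of the sense gene, could not be told from antisense RNA.

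Of the 323 genes, 318 had a sense gene, 315 of them protein-coding. By layout, 136 lay inside the sense gene, 83 ran into its 3′ end (tail to tail), 32 overlapped it start to start, 12 spanned it and 1 lay apart. The other 54 started within 1 kb of its start on the other strand (head to head), whether or not they overlapped it. Exons were not shared with the other strand in 68 genes, shared in part (under 50% of the bases) in 193 and shared at 50% or more in 62. A near-identical copy, with at least 95% identity over at least 50% of a transcript, lay elsewhere in the transcriptome for 20 genes, whose reads the quantification may have divided among copies.

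Sequences of 4 of the lower genes are shown first, and reads over them were not counted apart. The sequences are exon junctions, with the last 40 bases of an exon in lower case and the first 40 of the next exon in capitals. All 4 genes were lower in all Tet2-/- mice and were called by DESeq2. Gm47547 and Gm12709, also called, had more negative log2 fold changes than Gm20400 and are not shown. All bases come from the GENCODE M21 transcripts on GRCm38, and none of them is exonic on the other strand. For 1700006J14Rik the exons join chr10:120369985-120370024 to chr10:120382065-120382104, for 9230105E05Rik chr10:120389590-120389629 to chr10:120389766-120389805, for Gm15910 chr10:120857722-120857761 to chr10:120858948-120858987, and for Gm20400 chr6:142168089-142168128 to chr6:142173374-142173413, all on the plus strand.
1700006J14Rik: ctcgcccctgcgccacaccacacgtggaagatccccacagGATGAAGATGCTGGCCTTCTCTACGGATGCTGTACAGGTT
9230105E05Rik: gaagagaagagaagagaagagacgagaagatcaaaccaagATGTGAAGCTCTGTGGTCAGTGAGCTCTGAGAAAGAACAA
Gm15910: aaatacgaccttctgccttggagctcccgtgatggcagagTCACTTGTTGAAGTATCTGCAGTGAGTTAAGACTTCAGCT
Gm20400: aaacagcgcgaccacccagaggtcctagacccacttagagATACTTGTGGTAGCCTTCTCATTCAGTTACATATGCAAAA

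The clearest difference was in 1700006J14Rik, which lies inside *Hmga2* at chr10:120364157-120384336 on the plus strand of GRCm38. *Hmga2* encodes a chromatin-binding protein of fetal and tumor cells. The antisense gene was at 255, 66.9 and 87.1 CPM in the Tet2+/+ mice 19, 23 and 24 and at 3.10, 0.579 and 1.79 CPM in the Tet2-/- mice 5, 7 and 8, on the scale of TMM-normalized CPM used for levels from here on. Every Tet2-/- library was below every Tet2+/+ library, with 1 high library, mouse 19, among the latter. The edgeR quasi-likelihood fit gave a log2 fold change of -6.17 (SE 0.80) with an adjusted p of 0.0908, and DESeq2 gave -6.21 with an adjusted p of 7.17e-17. Leaving out each mouse in turn, the log2 fold change lay between -6.83 (without mouse 5) and -5.36 (without mouse 19).

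The sense gene *Hmga2* was at 1.67, 1.18 and 0.986 CPM in the Tet2+/+ mice and at 1.23, 0.964 and 1.84 CPM in the Tet2-/- mice, with overlapping genotypes and a log2 fold change of 0.07 (SE 0.45, edgeR adjusted p = 0.982). Per length, 1700006J14Rik stood at 91.5 ± 63.0 TPM (transcripts per 1000000, which accounts for length; SD, n = 3) in Tet2+/+ and at 1.69 ± 0.780 TPM in Tet2-/- blasts, and *Hmga2* at 0.220 ± 0.0386 and 0.234 ± 0.0674 TPM. The 2 genes shared 140 exonic bases, 4.85% of the bases of the antisense gene, where its first exon lies opposite the last exon of *Hmga2*.

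A second antisense gene in *Hmga2*, 9230105E05Rik (chr10:120389523-120392793, plus strand), begins 25.4 kb downstream and shares no exonic base with the other strand. It was at 23, 5.19 and 3.80 CPM in Tet2+/+ and at 0.158, 0 and 0.326 CPM in Tet2-/- blasts. The Tet2-/- libraries held at most 6 reads of it, against at most 385 in the Tet2+/+ libraries. Its log2 fold change was -5.96 (SE 1.11, edgeR adjusted p = 0.213, DESeq2 adjusted p = 1.25e-07), with -4.72 without mouse 19 and -6.69 without mouse 8.

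Gm15910 (chr10:120857629-120863326, plus strand), 493 kb from the start of 1700006J14Rik, lies inside *Msrb3*, the gene of a methionine sulfoxide reductase. It stood at 4.37, 0.428 and 2.18 CPM in Tet2+/+ and at 0.190, 0.0643 and 0.109 CPM in Tet2-/- blasts, and its log2 fold change was -4.11 (SE 0.94, edgeR adjusted p = 0.321, DESeq2 adjusted p = 0.00443), or -3.27 without mouse 19. The Tet2+/+ mouse 23 was the lowest of its genotype, at 0.428 CPM. *Msrb3* was at 0.375 to 0.658 CPM in Tet2+/+ and at 0.0949 to 0.386 CPM in Tet2-/- blasts, and the genotypes overlapped.

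Other genes of the neighbourhood were chosen after the values were seen. *Irak3*, an inhibitor of Toll-like receptor signaling at -162 kb, was at 64.0, 30.8 and 46.9 CPM in Tet2+/+ and at 63.5, 110 and 70.7 CPM in Tet2-/- blasts, with overlap (log2 fold change 0.79, SE 0.32, edgeR adjusted p = 0.604). *Lemd3*, at 615 kb, was at 20.9 to 26.4 CPM in Tet2+/+ and at 20.9 to 26.5 CPM in Tet2-/- blasts, and *Llph*, at -137 kb, at 20.5 to 26.6 and 16.7 to 30.1 CPM. *Tmbim4*, at -163 kb, was higher in the Tet2-/- libraries without overlap (log2 fold change 0.37, SE 0.14, edgeR adjusted p = 0.594). The noncoding 4921513I03Rik on the same strand as the antisense genes, at 402 kb, was at 0.161 to 0.658 and 0.0543 to 2.06 CPM, with overlap.

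**Figure D1:**
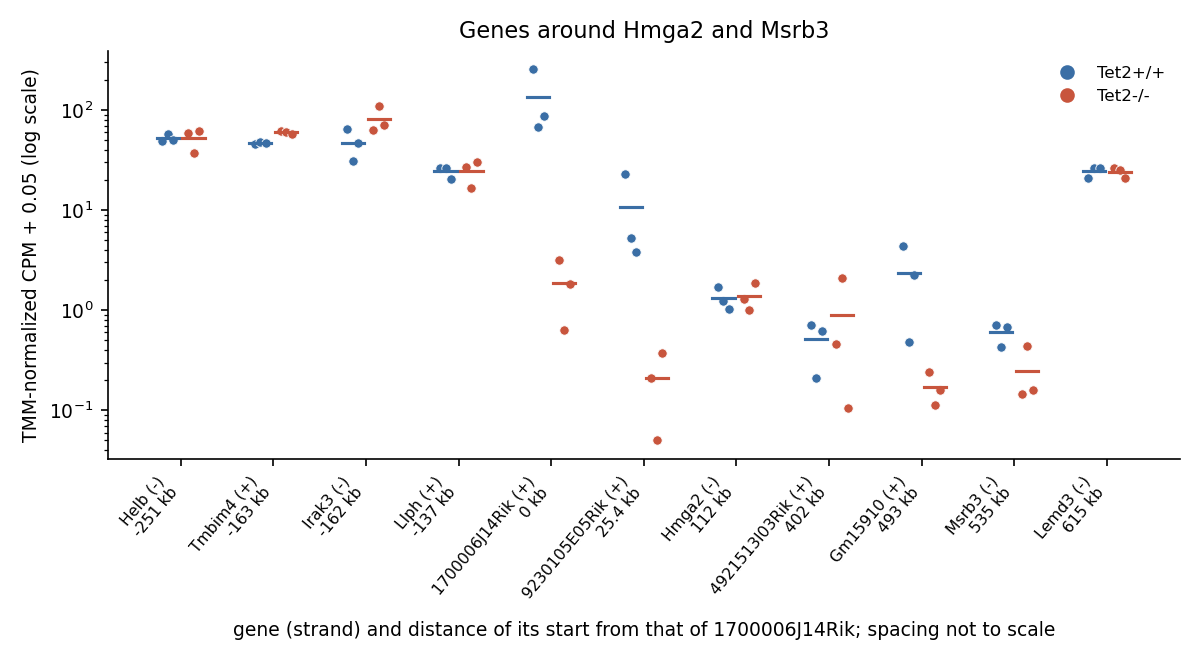
TMM-normalized CPM plus 0.05 (log scale) of genes around *Hmga2* and *Msrb3* in each library, with the strand and the distance of each start from that of 1700006J14Rik. Points are mice (3 per genotype) and lines are means. 1700006J14Rik, 9230105E05Rik and Gm15910 were lower in every Tet2-/- library, and *Hmga2* and *Lemd3* overlapped.

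The start of Gm15910 is given here for its CG dinucleotides, where TET2 acts if they are methylated, together with that of Gm16897, an antisense gene at *Cd34* that was lower too. Both are RefSeq promoters of 300 bases on GRCm38.p6 (250 before and 50 after the start), read 5′ to 3′ on the strand of the gene with CG in capitals, at chr10:120857379-120857678 (plus) and chr1:194976910-194977209 (minus). Each held 8 CG, while the promoter of 1700006J14Rik held 10 and that of Gm12709, lower as well, held 0.
Gm15910: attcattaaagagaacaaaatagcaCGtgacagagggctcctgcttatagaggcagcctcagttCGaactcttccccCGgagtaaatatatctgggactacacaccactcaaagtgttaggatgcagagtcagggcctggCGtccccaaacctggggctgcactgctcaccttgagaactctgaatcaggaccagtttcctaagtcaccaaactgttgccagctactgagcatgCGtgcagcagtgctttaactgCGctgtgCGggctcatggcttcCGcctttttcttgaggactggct
Gm16897: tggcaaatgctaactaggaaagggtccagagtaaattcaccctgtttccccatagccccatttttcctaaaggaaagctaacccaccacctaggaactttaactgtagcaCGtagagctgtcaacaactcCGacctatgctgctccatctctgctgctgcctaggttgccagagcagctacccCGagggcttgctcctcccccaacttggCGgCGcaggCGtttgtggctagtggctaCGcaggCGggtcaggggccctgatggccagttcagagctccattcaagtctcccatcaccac

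RefSeq promoters were matched by symbol for 126 of the 323 genes, and for 79 of them the start lay within 100 bases of the GENCODE start. They held a median of 11.5 CG, against 7 over all 32851 promoters of that table and 20.0 over the 251 sense genes with an entry. The 16 genes without overlap on the lower side had a median of 9, the 4 on the higher side 8 and the 106 with overlap 14, so that the medians of the lower and the higher genes were close. These counts are a description of sequence, since DNA methylation was not part of the files used here.

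Among the genes with most reads, Gm20400 and Gm29084 were lower in all Tet2-/- mice. Gm20400 (chr6:142161493-142173796, plus strand), inside the organic anion transporter gene *Slco1a6*, was at 136, 52.3 and 84.8 CPM in Tet2+/+ and at 28.8, 24.2 and 22.7 CPM in Tet2-/- blasts. Its log2 fold change was -1.85 (SE 0.35, edgeR adjusted p = 0.213, DESeq2 adjusted p = 0.000402). A copy of 96.1% identity in Gm12505 covers 19.1% of it. It shares no exonic base with *Slco1a6*, which was at 0.845 to 1.5 CPM in Tet2+/+ and at 0.772 to 1.68 CPM in Tet2-/- blasts, with overlap.

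Gm29084 (chr1:62534491-62535942, minus strand), a gene of 1 exon inside the polarity gene *Pard3b*, was at 113, 200 and 206 CPM in Tet2+/+ and at 44.2, 50.5 and 70.2 CPM in Tet2-/- blasts. Its log2 fold change was -1.65 (SE 0.29, edgeR adjusted p = 0.192, DESeq2 adjusted p = 0.000251). Its whole transcript had a copy at 98.2% identity in Gm42860 on chromosome 5, a gene of unclear status at 292, 483 and 670 CPM in Tet2+/+ and at 130, 163 and 197 CPM in Tet2-/- blasts. Which of the copies gave the reads was not tested, and the 60 bases at chr1:62535858-62535917 are shown because they are identical in both.
Gm29084: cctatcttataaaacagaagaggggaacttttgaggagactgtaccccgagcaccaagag

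**Figure D2:**
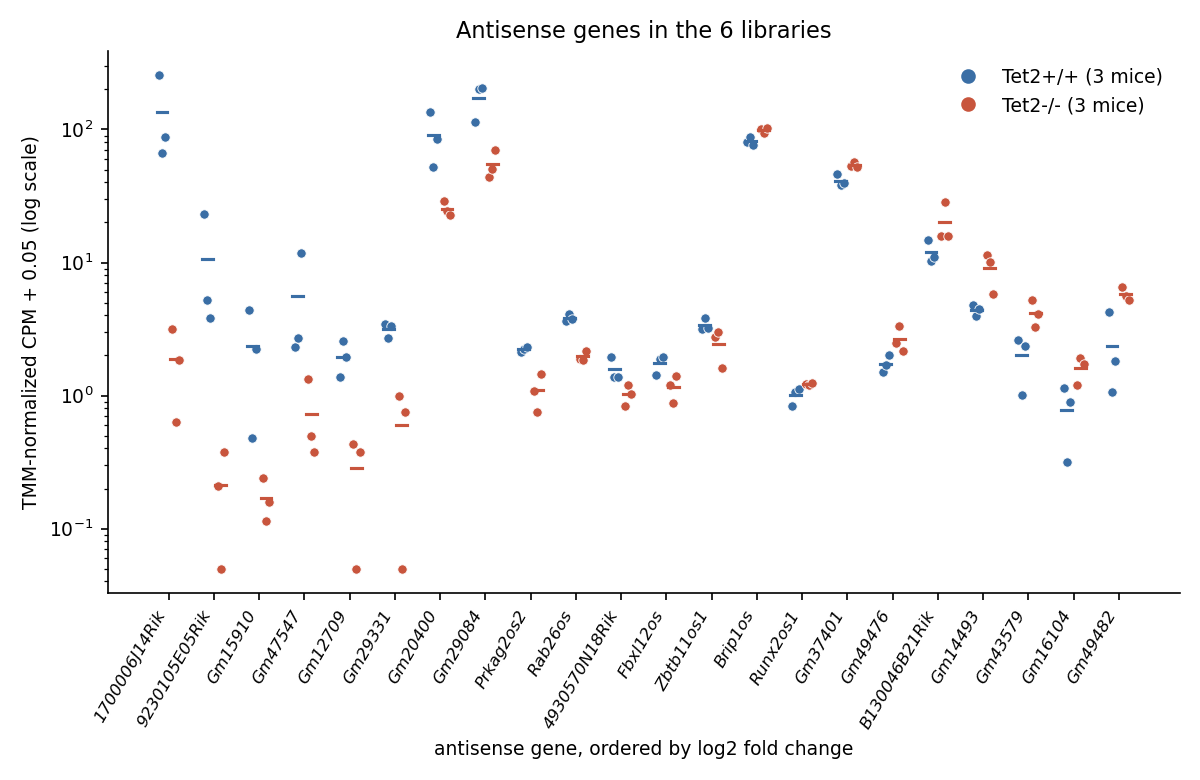
TMM-normalized CPM plus 0.05 (log scale) in each library of named antisense genes whose genotypes did not overlap, in order of their log2 fold change. Points are mice (3 per genotype) and lines are means. 1700006J14Rik, at 66.9 to 255 CPM in Tet2+/+ and 0.579 to 3.10 CPM in Tet2-/- blasts, has the widest gap.

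Among the 323 genes, edgeR called 0 at an adjusted p of 0.05. With edgeR and Benjamini-Hochberg adjustment over the 22170 genes tested, the smallest adjusted p was 0.0908, and 10 genes of all those tested (0.0451%) passed 0.05 in either direction. Before adjustment, 16 of the 323 had p under 0.05 on the lower side in Tet2-/- blasts (4.95%, against 5.29% of all genes at 1 CPM or more) and 5 on the higher side (1.55%, against 3.90%). DESeq2 called 8 lower (2.48%) and 0 higher, against 2.09% and 0.412% of all genes at 1 CPM or more, and 1.47% and 0.266% of all genes tested. Of these 8, 5 averaged 1 normalized CPM or more in Tet2+/+ blasts only, so that the selection on the mean enters this count too. DESeq2 was the test that the study used for this comparison, and its calls stand here as an alternative. In a check on simulated counts with 3 samples a group, unchanged genes made up a larger share of the DESeq2 calls than of the edgeR calls. That check gave every gene the same dispersion (spread between samples), unlike these data, so it does not judge the calls here. The 8 were 1700006J14Rik, 9230105E05Rik, Gm29084, Gm20400, Gm15910, Gm16897, Gm47547 and Gm12709.

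Counting genes whose 3 Tet2-/- values all lay on the same side of the 3 Tet2+/+ values, 36 were lower (11.1%, against 7.78% of all genes at 1 CPM or more) and 19 were higher (5.88%, against 8.23%). The selection on the mean enters these counts: 13 of the 36 averaged 1 normalized CPM or more in Tet2+/+ blasts only, and 3 of the 19 in Tet2-/- blasts only. The 13 were 9230105E05Rik, Gm47547, Gm29331, Gm16897, Gm49463, Gm10138, 4930570N18Rik, 4933431E20Rik, Gm15910, Gm17477, Gm12709, Gm10353 and Gm15537, and the 3 were A730081D07Rik, Gm16104 and Runx2os1. Of the 276 genes at that level in both genotypes, 23 were lower (8.33%) and 16 higher (5.80%). A single gene of this kind has an exact permutation p of 0.1, two-sided, the smallest that 3 mice against 3 allow. With scaling by library size alone, which moved the median of all genes by -0.17 on the log2 scale, 60 were lower and 9 higher, against 12.3% and 2.92% of all genes at 1 CPM or more under that scaling and 18.6% and 2.79% for the 323. The median log2 fold change of the 323 was -0.065, with quartiles of -0.41 and 0.29, against 0.051 over all genes at 1 CPM or more. It was 0.027 with members at 2 CPM or more and -0.179 without mouse 7. The p-values measure the spread between these mice only.

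Low-level genes of other biotypes were counted in the same way. Of 1842 protein-coding genes between 1 and 5 CPM, 12.6% were lower and 2.61% higher without overlap, and of the 245 antisense genes in that range 11% were lower and 5.31% higher. Of 416 lincRNA genes at 1 CPM or more, 16.1% were lower and 2.16% higher. The lower share of the antisense genes was below, and the higher share above, those of coding genes of that range, and no difference between the biotypes was tested.

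**Figure D3:**
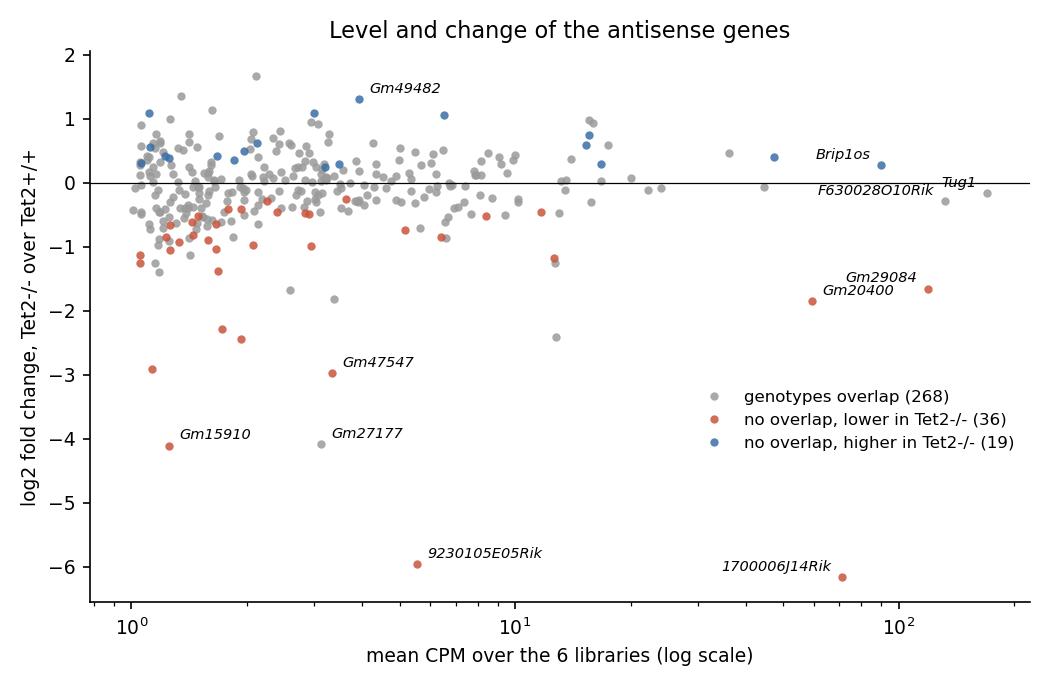
Mean CPM over the 6 libraries (log scale) and edgeR log2 fold change of Tet2-/- over Tet2+/+ for the 323 antisense genes. Each point is a gene, colored by whether the genotypes overlapped, with 36 lower, 19 higher and 268 overlapping. 1700006J14Rik is the only gene above 50 CPM with a log2 fold change below -2.

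The antisense genes held 0.212 to 0.242% of the reads in the Tet2+/+ libraries and 0.159 to 0.173% in the Tet2-/- libraries. Their 8 highest members took 39.4 to 43.0% of these reads in Tet2+/+ and 29.7 to 32.9% in Tet2-/- blasts. Summed over all 323, normalized levels were 2238, 1923 and 2224 CPM in mice 19, 23 and 24 and 1653, 1995 and 1642 CPM in mice 5, 7 and 8, and the genotypes overlapped. In bulk RNA, fewer cells of a type and less RNA per cell cannot be told apart.

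Markers of other cells were read beside the members. Their lowest adjusted p-values in edgeR were 0.116 for *Jchain*, 0.117 for *Gata2* and 0.283 for *Cpa3*, and 7.78% of all genes were lower without overlap. The 6 basophil and mast cell markers summed to 304 to 396 CPM in Tet2+/+ and to 30.9 to 110 CPM in Tet2-/- blasts, mostly from *Cpa3* and *Gata2*, which early progenitors also express. The study reported *Gata2* as a gene lowered by loss of TET2 in these leukemias. Only *Cpa3* and *Gata2* of the 6 were apart between genotypes: *Mcpt8* (3.91 to 16.4 and 3.28 to 7.15 CPM) and *Ms4a2* (1.55 to 6.04 and 3.47 to 6.68 CPM) overlapped, *Prss34* was at most 0.211 CPM, and *Fcer1a* was at 0.0598 CPM in 1 library and at 0 in the rest. The 6 plasma cell markers summed to 144 to 193 and 30.9 to 58.8 CPM, mostly from *Jchain*. Of the 6, *Jchain* and *Derl3* (2.18 to 3.71 and 0.579 to 1.52 CPM) were lower without overlap, and the others overlapped. Sums of 8 B cell, 8 T and NK cell, 8 erythroid, 6 megakaryocyte and 5 stromal markers overlapped between the genotypes, at 32.2 to 95.9 and 26.2 to 74.0, 43.1 to 45.6 and 15.5 to 44.0, 5.99 to 144 and 7.71 to 15.2, 27.0 to 47.5 and 10.3 to 29.2, and 3.69 to 57.0 and 3.04 to 25.1 CPM. Within these lists *Ncr1* (3.64 to 5.35 and 0.488 to 1.42 CPM), *Itga2b* (23.7 to 43.8 and 6.95 to 21.7 CPM) and *Alas2* (0.211 to 0.359 and 0 to 0.0643 CPM) were lower without overlap. The part of such cells in the lower antisense genes was not tested. The 12 markers of myeloid blasts summed to 8795 to 10583 and 8847 to 11161 CPM, and all 12 were at 1 CPM or more, with *Mpo* and *Cd34* lower and *Ms4a3* higher without overlap.

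The label of the genotypes could not be checked on gene totals. *Tet2* was at 73.6, 79.5 and 98.4 CPM in Tet2+/+ and at 111, 79.4 and 96.7 CPM in Tet2-/- blasts (log2 fold change 0.19, SE 0.19), and reads of the floxed part were not counted apart from the rest of the gene. *Cebpa* was at 140, 194 and 287 CPM and at 158, 75.7 and 124 CPM (log2 fold change -0.80, SE 0.35). Library totals ran from 13036643 to 16900584 reads in Tet2+/+ and from 17953277 to 32855343 in Tet2-/- blasts, so that 1 read was worth 0.0592 to 0.0767 CPM and 0.0304 to 0.0557 CPM by library size.

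The other lower members included several at genes of known role. Gm16897 (chr1:194955759-194976960, minus strand) runs into the 3′ end of *Cd34*, the gene of a sialomucin on progenitor cells. It was at 1.62, 3.75 and 2.75 CPM in Tet2+/+ and at 0.569, 0.257 and 0.814 CPM in Tet2-/- blasts (log2 fold change -2.28, SE 0.57, edgeR adjusted p = 0.385). *Cd34* itself was at 170, 310 and 193 CPM and at 90.0, 32.1 and 132 CPM, also without overlap (log2 fold change -1.41, SE 0.50, adjusted p = 0.582). The antisense gene shared 23% of its exonic bases with the other strand.

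Gm12709, tail to tail with the endocytosis gene *Sgip1*, was at 1.32, 2.52 and 1.90 CPM in Tet2+/+ and at 0.380, 0 and 0.326 CPM in Tet2-/- blasts (log2 fold change -2.91, SE 0.85). *Sgip1* was at 30.4, 54.7 and 36.1 and at 13.3, 4.95 and 15.0 CPM, and neither gene overlapped between genotypes. Gm29331, whose bases are all exonic on the other strand in the adenylyl cyclase gene *Adcy6*, was at 3.41, 2.68 and 3.31 and at 0.949, 0 and 0.705 CPM (log2 fold change -2.44, SE 0.94, and -3.10 without mouse 5). *Adcy6* was at 38.5, 68.4 and 76.6 and at 15.1, 2.51 and 8.25 CPM, with mouse 7 the lowest in both genes. The strand from which the Gm29331 reads came cannot be told apart.

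Gm47547, inside *Dydc2*, was at 2.27, 2.68 and 11.8 CPM in Tet2+/+ and at 1.27, 0.450 and 0.326 CPM in Tet2-/- blasts (log2 fold change -2.98, SE 0.86). It was -1.82 without mouse 24 and -3.84 without mouse 5. *Dydc2* had no read in any library. A copy of 96.0% identity over 99.8% of the Gm47547 transcript belongs to Gm8113, at 5.14, 5.57 and 18.8 CPM and at 2.34, 1.03 and 0.705 CPM. In both copies mouse 24 was the highest and no Tet2-/- value reached the Tet2+/+ values.

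A few antisense genes had large fold changes and overlapping genotypes. Gm27177 was at 0, 6.64 and 9.65 CPM in Tet2+/+ and at 0.348, 0.257 and 0.326 CPM in Tet2-/- blasts, so that mouse 19 was the lowest of all. Gm45774, at the metallothionein gene *Mt2*, was at 2.87, 25.8 and 31.9 and at 8.32, 1.03 and 1.79 CPM. Gm10550, at *Thap4*, had the highest fold change of all members (1.67 on the log2 scale) with 0, 3.05 and 0 CPM in Tet2+/+ and 3.01, 4.24 and 2.71 CPM in Tet2-/- blasts.

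The higher genes had smaller differences. Gm49482 (chr15:103301065-103309077, plus strand), with 93.8% of its bases opposite exons at *Gpr84*, a receptor of medium-chain fatty acids on myeloid cells, was at 4.19, 1.02 and 1.76 CPM in Tet2+/+ and at 6.49, 5.59 and 5.21 CPM in Tet2-/- blasts. Its log2 fold change was 1.31 (SE 0.54, edgeR adjusted p = 0.604), beside 1.19 (SE 0.52) for *Gpr84*, which was at 15.6, 3.64 and 5.35 and at 18.9, 17.4 and 19.6 CPM. In both genes the Tet2-/- values lay close together above all Tet2+/+ values, and without mouse 19 the log2 fold change of Gm49482 was 2.05.

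Gm14493 lies whole within exons of *Mid1ip1*, a regulator of lipid synthesis, and was at 4.73, 3.91 and 4.44 CPM in Tet2+/+ and at 11.4, 10.0 and 5.70 CPM in Tet2-/- blasts (log2 fold change 1.05, SE 0.34). *Mid1ip1* had 0.54 (SE 0.20). B130046B21Rik, tail to tail with the AMPK subunit gene *Prkag1*, was at 14.7, 10.3 and 11 and at 15.9, 28.5 and 15.8 CPM (log2 fold change 0.74, SE 0.31), beside 0.70 (SE 0.20) for *Prkag1*. Both pairs were higher in all Tet2-/- mice, and none of these passed the adjusted test.

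Gm37401, with 93.4% of its bases opposite exons at the GTPase gene *Rhoa*, was at 46.3, 38.0 and 39.4 CPM in Tet2+/+ and at 53.4, 57.3 and 52.1 CPM in Tet2-/- blasts (log2 fold change 0.40, SE 0.15). *Rhoa* had 0.41 (SE 0.16). Gm19719, which shares 4.47% of its bases at *Alox5ap*, the gene of the protein that activates 5-lipoxygenase, was at 12.4, 12.2 and 12.5 and at 17.9, 20.5 and 17.7 CPM (log2 fold change 0.60, SE 0.19), beside 0.92 (SE 0.27) for *Alox5ap*. Its Tet2+/+ values lay between 12.2 and 12.5 CPM.

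Of 3 more higher genes the sense gene overlapped between genotypes. Gm43579 inside the RNA helicase gene *Ddx54* had a log2 fold change of 1.08 (SE 0.47) beside 0.21 (SE 0.22). Gm16104 inside the transcription factor gene *Nfic* had 1.09 (SE 0.58) beside 0.26 (SE 0.20), from 0.268 to 1.08 CPM in Tet2+/+ and 1.14 to 1.86 CPM in Tet2-/- blasts. Gm49476 inside *Tob2*, an antiproliferative gene, had 0.63 (SE 0.37) beside 0.23 (SE 0.24).

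Gm11505 lies opposite *Mpo*, the gene of the main peroxidase of the azurophil granules, and shares 69.5% of its exonic bases with the other strand. The bases at chr11:87796230-87796289, in coding exon sequence of *Mpo*, show what this means for reads without strand, since each line is the reverse complement of the other.
Gm11505: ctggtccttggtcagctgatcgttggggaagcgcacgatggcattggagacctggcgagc
Mpo: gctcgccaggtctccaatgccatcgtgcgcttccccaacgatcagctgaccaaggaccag

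Gm11505 was at 15.7, 11.6 and 13.1 CPM in Tet2+/+ and at 8.83, 10.9 and 9.66 CPM in Tet2-/- blasts, and *Mpo* at 4527, 4110 and 4230 and at 3394, 3091 and 2662 CPM. The log2 fold changes were -0.46 (SE 0.23) and -0.49 (SE 0.25), with the genotypes apart in both. A read from the printed stretch matches both transcripts, and its source was not tested.

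The counts were also taken by the share of exonic bases on both strands. Of the 68 genes with no exonic base on the other strand, 11 were lower and 1 higher without overlap, and of the 62 with 50% or more shared, 6 were lower and 9 higher. These are 16.2% and 1.47%, and 9.68% and 14.5%, against 7.78% and 8.23% of all genes and the 12.6% and 2.61% of low-level coding genes. The median log2 fold changes were -0.17 and 0.14, and -0.11 in the 193 genes with less than 50% shared. Their sense genes had medians of 0.03, 0.08 and 0.09. The difference between the classes was not tested.

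**Figure D4:**
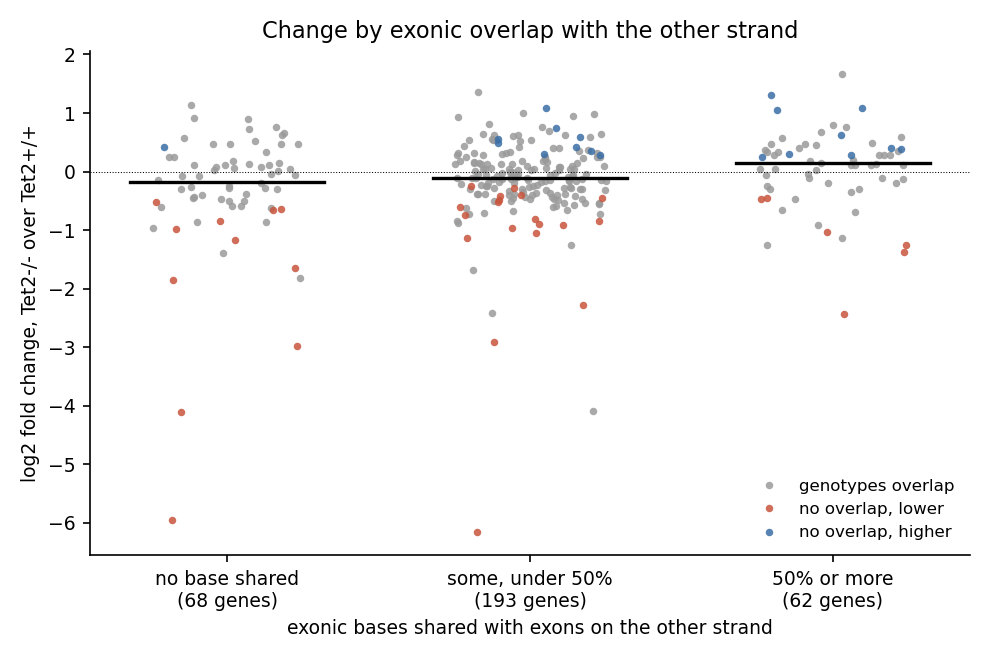
EdgeR log2 fold change of Tet2-/- over Tet2+/+ for the 323 antisense genes by the share of their exonic bases that is exonic on the other strand. Points are genes, colored by whether the genotypes overlapped, and lines are medians, at -0.17, -0.11 and 0.14. Lower and higher genes number 11 and 1 where no base is shared and 6 and 9 where 50% or more is shared, with no test between the classes.

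By layout, genes inside the sense gene gave 22 lower and 8 higher of 136, head-to-head genes 6 lower and 0 higher of 54, tail-to-tail genes 7 lower and 9 higher of 83, and start-to-start genes 0 lower and 2 higher of 32. As shares these were 16.2% and 5.88%, 11.1% and 0%, 8.43% and 10.8%, and 0% and 6.25%, against 7.78% and 8.23% of all genes, and no difference between layouts was tested. Head-to-head partners included *Cyb5r3*, the gene of a cytochrome b5 reductase, with Gm49463 at 2.39, 2.89 and 1.76 CPM in Tet2+/+ and at 0.886, 0.964 and 0.868 CPM in Tet2-/- blasts. Gm49463 shared 65.5% of its exonic bases with the other strand. Its log2 fold change was -1.37 (SE 0.39, edgeR adjusted p = 0.473), and that of *Cyb5r3* -0.01 (SE 0.21).

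The sense genes were then read in the same fit. Of the 280 distinct sense genes at 1 CPM or more, 0 passed an adjusted p of 0.05 in edgeR. Before adjustment 10 had p under 0.05 on the lower (3.57%) and 13 on the higher side (4.64%), against 5.29% and 3.90% of all genes at 1 CPM or more. DESeq2 called 4 lower (1.43%) and 1 higher (0.357%), against 2.09% and 0.412% of all genes at 1 CPM or more. Without overlap, 18 were lower (6.43%) and 27 higher (9.64%), beside the 6.45% and 9% of all protein-coding genes at that level, and their median log2 fold change was 0.07. Of the 36 lower members, 7 had a sense gene that was also lower without overlap, and of the 19 higher members 6 had one that was also higher, with 0 pairs in opposite directions. Among members with overlap, 13 had a sense gene that was lower without overlap, 22 one that was higher and 228 one that overlapped. The same joint count was not made over other opposite-strand pairs. The antisense and sense values of a pair come from the same libraries and partly from the same bases.

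The other pairs in which both genes were lower were at *Vipr2*, *Ece1* and *Tbc1d23*. Gm20658, without a base shared with *Vipr2*, the gene of a neuropeptide receptor, was at 13.6, 19 and 18.6 CPM in Tet2+/+ and at 2.37, 12.7 and 7.71 CPM in Tet2-/- blasts (log2 fold change -1.17, SE 0.55). *Vipr2* was far below its antisense gene, at 1.14 to 1.41 and at 0.217 to 0.579 CPM. Gm13012, also without a shared base, was at 11.2, 9.26 and 8.80 and at 5.57, 6.56 and 8.30 CPM, inside *Ece1*, the gene of an endothelin-converting enzyme, which was at 20.6 to 28.4 and at 9.52 to 19 CPM. Gm16892 was at 5.44 to 8.17 and at 3.26 to 4.76 CPM, tail to tail with *Tbc1d23* at 88.9 to 110 and at 45.2 to 66.7 CPM. The other pair in which both were higher was Gm13563 with *Entr1*, at log2 fold changes of 0.29 (SE 0.31) and 0.33 (SE 0.17).

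**Figure D5:**
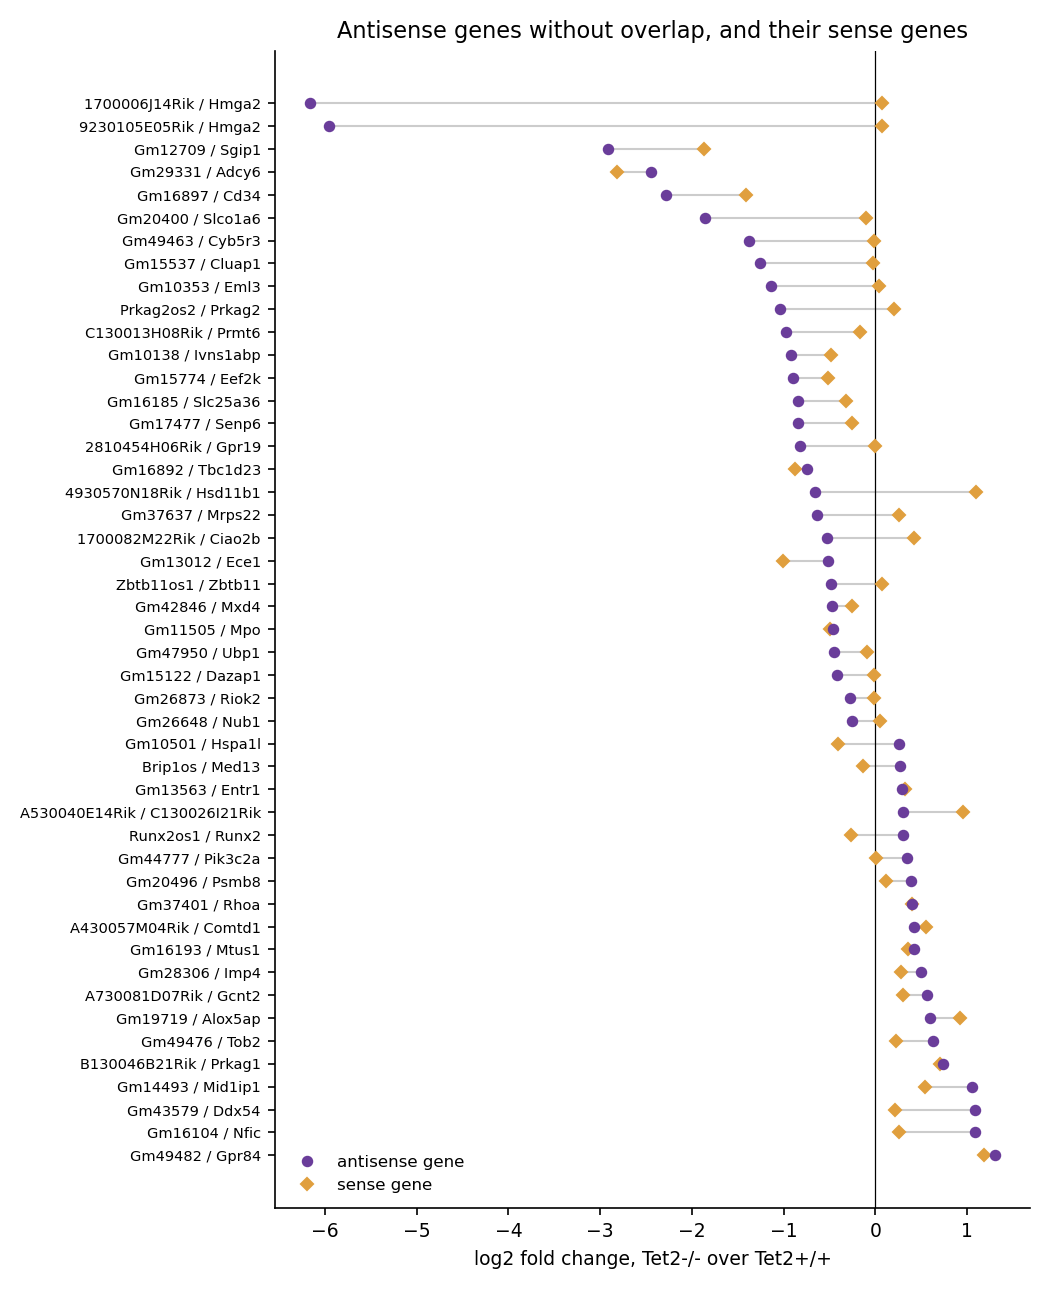
EdgeR log2 fold changes of Tet2-/- over Tet2+/+ for the 47 antisense genes without overlap whose sense gene was at 1 CPM or more (circles), each on a line with its sense gene (diamonds). 1700006J14Rik and 9230105E05Rik lie near -6 beside *Hmga2* at 0.07, and Gm11505, Gm37401 and B130046B21Rik lie close to *Mpo*, *Rhoa* and *Prkag1*.

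The antisense level was also set against the sense level of the same library. This was a log2 ratio with 0.1 CPM added to each side, which weighs on genes near that level, in 287 pairs with both genes at 1 CPM or more. The genotypes did not overlap in 45 pairs (15.7%, against 14.4% of 1496 other opposite-strand pairs), with 35 ratios lower (12.2%) and 10 higher (3.48%) in Tet2-/- blasts. Among 350 other pairs of a noncoding and a coding gene, 32 ratios were lower (9.14%) and 17 higher (4.86%).

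The lowest differences in the ratio were those of 1700006J14Rik and 9230105E05Rik to *Hmga2*, at -6.21 (SE 0.70) and -5.19 (SE 0.70), or -5.84 and -3.73 with 0.5 CPM added. Next came 4930570N18Rik to *Hsd11b1*, the gene of a glucocorticoid-activating enzyme, at -2.03 (SE 0.69). Here *Hsd11b1* stood at 187, 28.3 and 56.7 CPM in Tet2+/+ and at 134, 296 and 151 CPM in Tet2-/- blasts, while the antisense gene was between 0.791 and 1.91 CPM.

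At the other end, the ratio of Gm16638 to *Tmc3* was higher by 4.15 (SE 0.85), or by 2.81 (SE 0.40) with 0.5 CPM added, a size set by the added value since *Tmc3* was near 0 in Tet2-/- blasts. Gm16638 was at 3.71, 1.77 and 3.31 CPM in Tet2+/+ and at 3.45, 3.99 and 2.77 CPM in Tet2-/- blasts, with overlap. *Tmc3*, of the transmembrane channel-like family, was at 4.37, 2.41 and 4.44 CPM and at 0.190, 0 and 0.434 CPM (log2 fold change -4.10, edgeR unadjusted p = 0.00226). The ratios of Gm43579 to *Ddx54* and of Mypopos to *Mypop* were higher by 0.93 (SE 0.54) and 0.86 (SE 0.24). Each of these 6 ratio differences has an exact permutation p of 0.1.

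The level of a member was mostly below that of its sense gene. Per length, the median member stood at 11.6% of the TPM of its sense gene over 314 pairs, and 66 members stood above it. The sense gene was under 1 CPM in 30 pairs, and that of Gm27177, *Entpd4b*, had no transcript in the files. Between the genotypes, 276 members averaged at least 1 normalized CPM in both, 30 in Tet2+/+ only and 17 in Tet2-/- only, and none was down to 3 reads or fewer in all libraries of a genotype.

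The highest member, *Tug1*, a noncoding gene head to head with *Morc2a*, was at 177, 165 and 192 CPM in Tet2+/+ and at 141, 167 and 171 CPM in Tet2-/- blasts (log2 fold change -0.16, SE 0.16), with overlap. Brip1os, which meets the 3′ end of the Mediator gene *Med13*, was between 76.9 and 87.3 CPM in Tet2+/+ and between 93.9 and 102 CPM in Tet2-/- blasts (log2 fold change 0.28, SE 0.14), without overlap. Gm48765, opposite the start of *Fars2* and with a copy at Olfr839-ps1, was at 48.7, 38.0 and 50.3 and at 33.5, 63.6 and 34.3 CPM, with overlap.

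F630028O10Rik (chrX:96239926-96243636, plus strand) has no sense gene by the rule used here and is the host of *Mir223*, a microRNA of granulocytes, whose hairpin lies at chrX:96242817-96242926. It was at 102, 110 and 219 CPM in Tet2+/+ and at 133, 135 and 86.1 CPM in Tet2-/- blasts, and mouse 24 was the highest. Its log2 fold change was -0.28 (SE 0.34), and the sign turned without mouse 24. The mature sequences from RefSeq (GRCm38.p6) are shown with the seed, bases 2 to 8, in capitals, and the microRNA itself was not measured by these libraries.
mmu-miR-223-5p: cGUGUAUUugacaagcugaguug
mmu-miR-223-3p: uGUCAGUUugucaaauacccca

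Members named as opposite strand (symbols ending in os) numbered 27. Of these, Prkag2os2, Rab26os, Fbxl12os and Zbtb11os1 were lower and Brip1os and Runx2os1 higher without overlap (14.8% and 7.41%, against 7.78% and 8.23% of all genes), and the median log2 fold change was -0.09. Rab26os, inside the small GTPase gene *Rab26*, was at 3.59, 4.07 and 3.73 CPM in Tet2+/+ and at 1.83, 1.80 and 2.12 CPM in Tet2-/- blasts (log2 fold change -0.98, SE 0.33, edgeR adjusted p = 0.544). Prkag2os2 was at 2.09, 2.20 and 2.25 and at 1.04, 0.707 and 1.41 CPM (-1.04, SE 0.41), while *Prkag2*, an AMPK subunit gene, overlapped.

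The threshold itself was crossed closely by 4 genes. Just inside were Atxn7l1os2 at 1.02 CPM by library size and 4933433G19Rik at 1.01, and just outside Gm40578 at 0.997 and Tnfsf13os at 0.995.

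Genes that make, process or sense antisense and double-stranded RNA were read beside the members. Of 67 such genes, among them the RNA exosome, Integrator, the cleavage and polyadenylation machinery, Argonautes and double-stranded RNA sensors, 0 passed the adjusted edgeR test. With p under 0.05 before adjustment 2 were lower (2.99%, against 5.29% of all genes) and 0 higher (against 3.90%). Without overlap 3 were lower (4.48%) and 5 higher (7.46%), at or below the 7.78% and 8.23% of all genes, with a median log2 fold change of 0.02. *Ago1*, an Argonaute, was at 70.5, 66.9 and 59.3 CPM in Tet2+/+ and at 38.4, 49.5 and 53.6 CPM in Tet2-/- blasts. *Ifih1*, which senses double-stranded RNA, was at 25.4, 27.8 and 31.4 and at 14.7, 19.9 and 12.2 CPM (log2 fold change -0.85, SE 0.23, adjusted p = 0.456). Both were lower in every Tet2-/- mouse.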

How the data were processed

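RNA of sorted blasts was sequenced for 75 cycles after poly(A) capture with an unstranded kit, 1 library per mouse and 3 mice per genotype. The authors quantified transcripts with Salmon 0.12.0 (from the submitters' processing notes) against Ensembl 94 on GRCm38. The deposited files give, per transcript, an estimated count (NumReads), TPM and an effective length. Estimated counts were summed to GENCODE M21 genes and rounded, and 0.0307 to 0.0416% of reads, on transcripts without a gene in that annotation, were left out of the tests. TPM, as deposited, was summed per gene and used only to compare levels per length. The members and lists were chosen with earlier results of these data known.

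edgeR 4.0.16 (R 4.3.3) quasi-likelihood tests with TMM factors were run on the 22170 genes whose normalized counts summed to at least 10, with Benjamini-Hochberg adjustment over all of them. SE is the absolute log2 fold change over the square root of F. DESeq2 1.42.0 was an alternative, as were length-scaled counts, other filters and scalings, other member thresholds and each mouse left out. The scripts were tested on simulated data. A sense gene was the opposite-strand gene overlapping the member, protein-coding genes first, then by shared exonic bases, or else the nearest start within 5 kb. Copies were sought with BLAST 2.17.0 at 95% identity. Genes named by rule, each with its sense gene, are the 8 members of the highest mean CPM, the 6 most negative and 6 most positive log2 fold changes without overlap, the 3 most negative and 3 most positive ratio differences without overlap, any member or sense gene past an adjusted p of 0.05, the 2 genes on each side of the threshold, *Tet2* and *Cebpa*, and handling genes past an unadjusted p of 0.05. A list of members with described roles, also part of the rule, held no member. Other named genes, the comparisons with other biotypes and noncoding pairs and the neighbourhood of *Hmga2* were chosen after values were seen. The labels name no batch. Tables and figures were made with Python 3.11.15 (pandas 2.3.3, numpy 2.4.6, matplotlib 3.10.9).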

Additional observations from a re-analysis of the deposited data

How the results depend on the processing

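No paired analysis was possible because the genotypes share no replicate numbers. DESeq2 called 8 antisense genes lower at an adjusted p of 0.05, against 0 by edgeR, and 4 sense genes lower and 1 higher. With length-scaled counts DESeq2 called the same 8 antisense genes and 2 sense genes lower, and edgeR left 3 antisense genes higher at an unadjusted p of 0.05. Without the filter on low counts edgeR called 2 antisense genes lower (1700006J14Rik and 9230105E05Rik, adjusted p 0.0059 and 0.0454), and with filterByExpr 3 were higher before adjustment. With scaling by library size only, 27 were lower and 1 higher before adjustment. Without overlap 60 were lower (18.6%, against 12.3% of all genes at 1 CPM or more) and 9 higher (2.79%, against 2.92%). Of the sense genes 37 were lower and 10 higher without overlap, beside 10.8% and 3.09% of protein-coding genes at that level. The median log2 fold change of the members was -0.246. With the 186 members at 2 CPM or more, 9 were lower before adjustment, 17 lower (9.14%, against 7.23%) and 11 higher (5.91%, against 8.86%) without overlap, 21 ratios were lower, and the median was 0.027. With the 551 members at 0.5 CPM or more, 61 were lower (11.1%, against 8.12% of all genes at that level) and 30 higher (5.44%, against 7.65%) without overlap, with 28 and 49 sense genes and 57 and 16 ratios. Without any shared exonic base, 8 were lower and 0 higher before adjustment, 11 and 1 without overlap, with 7 and 1 ratios and a median of -0.172. With another set of members the counts change with its size, and for the other settings the cause was not tested. Where no share stands beside them, counts before adjustment, of sense genes and of ratios were not made over all genes or pairs under that setting.

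Leaving out each mouse in turn, 0 antisense genes passed the adjusted edgeR test throughout. Before adjustment 12 to 20 were lower and 1 (without Tet2+/+ mouse 23) to 11 (without Tet2+/+ mouse 19) higher. These were not counted over all genes with a mouse left out, so no background stands beside them. Without overlap, which is easier to reach with fewer mice, 48 to 72 were lower (14.9 to 22.3%, against 9.94 to 14.8% of all genes at 1 CPM or more) and 25 to 33 higher (7.74 to 10.2%, against 10.2 to 20.1%), with 23 to 36 and 29 to 54 sense genes and 44 to 66 and 17 to 24 ratios, and the median lay between -0.179 and -0.039. The counts of sense genes and ratios were not set against other genes or pairs with a mouse left out. Of single genes the log2 fold change turned sign in F630028O10Rik (-0.483 to 0.154, the latter without mouse 24), Gm48765 (-0.43 to 0.096, with 0.012 without mouse 24, 0.096 without mouse 5, 0.085 without mouse 8), Gm16638 (-0.062 without mouse 23, to 0.42), Mypopos (-0.156 by library size, and -0.129 to 0.147, with -0.129 without mouse 19, -0.059 without mouse 8) and Atxn7l1os2 (-0.711 to 0.292, with 0.292 without mouse 19, 0.227 without mouse 5, 0.074 without mouse 8). All 5 overlapped between genotypes. Of 335 values of single genes under the alternatives, 308 kept direction and side of the threshold, 16 kept direction and passed it, and 11 turned sign. The depth limits genes near 1 CPM, where 1 read was worth 0.0304 to 0.0767 CPM.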
